A study of Mus musculus with 30 samples.

Results

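The aquaporins are membrane proteins that form narrow pores for water, and some of them also pass glycerol and other small solutes. The 9 genes described here are Aqp1, Aqp2, Aqp3, Aqp4, Aqp6, Aqp7, Aqp8, Aqp9 and Aqp11. They were taken by name: every probe set that the platform annotation pairs with one of these symbols was included, which gave 21 of the 45101 probe sets and 9 of the 18193 genes named by a single symbol. The arrays cover brain, kidney and liver of 10 males at day 22, when they were weaned and their coats scored, with 1 array for each tissue of each mouse. Each mouse carried Avy, the viable yellow allele of agouti, opposite the nonagouti allele a. The groups are 5 coat classes of 2 mice each, which run from yellow over slightly mottled, mottled and heavily mottled to pseudoagouti, and the mice of a class are numbered 1 and 2. No mouse without Avy was among them, so the classes differ in coat and share the genotype. The colony was bred brother to sister and derives from a C3H/HeJ mutation, and RNA came from frozen tissue, with no sorting of cells named. Signals are therefore sums over the cell types of an organ, in which fewer cells of a type and less RNA per cell cannot be told apart.

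Water crosses a membrane faster where an aquaporin is present, and each organ places different family members in its cells. In the kidney, Aqp1 lines the proximal tubule and descending thin limb. In the collecting duct, vasopressin moves Aqp2 into the apical membrane of principal cells, while Aqp3 and Aqp4 let water out on the basolateral side. In the brain, Aqp4 sits in the endfeet of astrocytes around vessels. In the liver, Aqp8 is a water channel of hepatocytes and Aqp9 takes up glycerol that gluconeogenesis uses. Aqp3, Aqp7 and Aqp9 are the aquaglyceroporins, Aqp6 is an intracellular channel of intercalated cells that also passes anions, and Aqp11 is an unorthodox member of the endoplasmic reticulum.

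The bases before the transcription start are shown for Aqp2 and for Aqp3, the gene most like it over the 30 arrays, both highest in kidney, and for Aqp8 and Aqp9, both highest in liver. Each window holds the 250 bases before a RefSeq start on GRCm38.p6, written 5′ to 3′ on the strand of the gene. Capitals mark matches, on either strand, to 5 short motifs that were searched by their letters: TATAAA (the TATA box), CGTCA (part of the cAMP response element), AGATAA (bound by GATA factors), GTTAAT (part of the HNF1 site) and CACGTG (the E-box of Myc and clock factors). The Aqp2 window is chr15:99578806-99579055 on the plus strand. The Aqp3 window is chr4:41098184-41098433 on the minus strand. The Aqp8 window is chr7:123462044-123462293 on the plus strand, and the window of the more upstream of the listed Aqp9 starts is chr9:71163290-71163539 on the minus strand.
Aqp2: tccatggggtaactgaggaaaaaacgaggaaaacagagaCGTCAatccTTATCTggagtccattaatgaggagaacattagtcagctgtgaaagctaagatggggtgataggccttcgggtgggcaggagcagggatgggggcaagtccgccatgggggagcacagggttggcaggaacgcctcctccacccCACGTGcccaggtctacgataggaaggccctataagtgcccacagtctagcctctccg
Aqp3: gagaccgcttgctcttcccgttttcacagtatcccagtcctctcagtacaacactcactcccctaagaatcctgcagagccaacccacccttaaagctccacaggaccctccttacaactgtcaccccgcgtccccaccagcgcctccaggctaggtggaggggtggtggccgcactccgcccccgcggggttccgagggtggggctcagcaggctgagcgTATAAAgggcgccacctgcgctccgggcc
Aqp8: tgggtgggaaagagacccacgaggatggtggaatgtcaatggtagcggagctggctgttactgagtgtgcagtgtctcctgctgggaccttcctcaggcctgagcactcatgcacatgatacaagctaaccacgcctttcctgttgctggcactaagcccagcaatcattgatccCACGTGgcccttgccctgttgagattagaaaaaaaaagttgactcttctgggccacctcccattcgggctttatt
Aqp9: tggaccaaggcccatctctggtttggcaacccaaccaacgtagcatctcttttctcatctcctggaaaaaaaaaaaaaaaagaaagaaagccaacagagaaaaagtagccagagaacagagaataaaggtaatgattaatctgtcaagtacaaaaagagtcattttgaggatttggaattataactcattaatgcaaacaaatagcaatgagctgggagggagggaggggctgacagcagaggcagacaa

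The Aqp2 window held 3 matches: CGTCA at position -211, AGATAA on the opposite strand at -202 and CACGTG at -58, counted from the start site to the first base of the match. In the Aqp3 window TATAAA lay at -29, and in the Aqp8 window CACGTG lay at -75. The Aqp9 window held none of the 5 motifs. Of all 32851 RefSeq windows of this length, 12.37% held the TATA box, 17.77% the cAMP element letters, 9.99% the GATA letters, 6.43% the HNF1 letters and 6.02% the E-box, so single matches are common. Windows were read for 8 of the 9 genes, and Aqp4 is not shown. Along the chromosomes, Aqp2, Aqp5 and Aqp6 are neighbouring genes, as are Aqp7 and Aqp3.

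The arrays had been scaled by the authors to a common level, with a trimmed mean signal of 500.0 in all 30. Arrays of mice numbered 1 and 2 nevertheless stood apart over many genes: number 2 differed from number 1 in 9.85% of tested liver values, 7.33% of those of kidney and 1.97% of those of brain. In kidney the highest signal on the array was 36950.8 or more in 4 of the 5 mice numbered 1, and 25922.1 or less in mottled 1 and in the mice numbered 2. The log2 ratio of the 3 prime to the 5 prime Gapdh control, a sign of RNA quality, was -0.5 to -0.407 in livers numbered 1 and -0.418 to -0.171 in livers numbered 2. Markers matched the tissue labels: 10 of 10 hepatocyte genes were higher in liver than in both other tissues, 8 of 8 neuronal genes higher in brain, and 11 of 12 proximal tubule genes higher in kidney than in liver.

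The first comparison asked how the family is divided between the organs. Kidney held the most members: Aqp1, Aqp2, Aqp3, Aqp6 and Aqp7 had their highest signal there. Aqp8 and Aqp9 were highest in liver, Aqp4 was highest in brain and also high in kidney, and the probe sets of Aqp11 disagreed. Signals are given as deposited on a linear scale, without detection calls. Tests were run on log2(signal + 16) within mice, so a fold is a ratio of signal + 16 and understates the difference of a gene that is low in 1 tissue. A difference was called at a limma adjusted p under 0.05 and a log2 difference of at least 1. Levels of different probe sets are not compared, because each probe set has its own response.

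**Figure D1:**
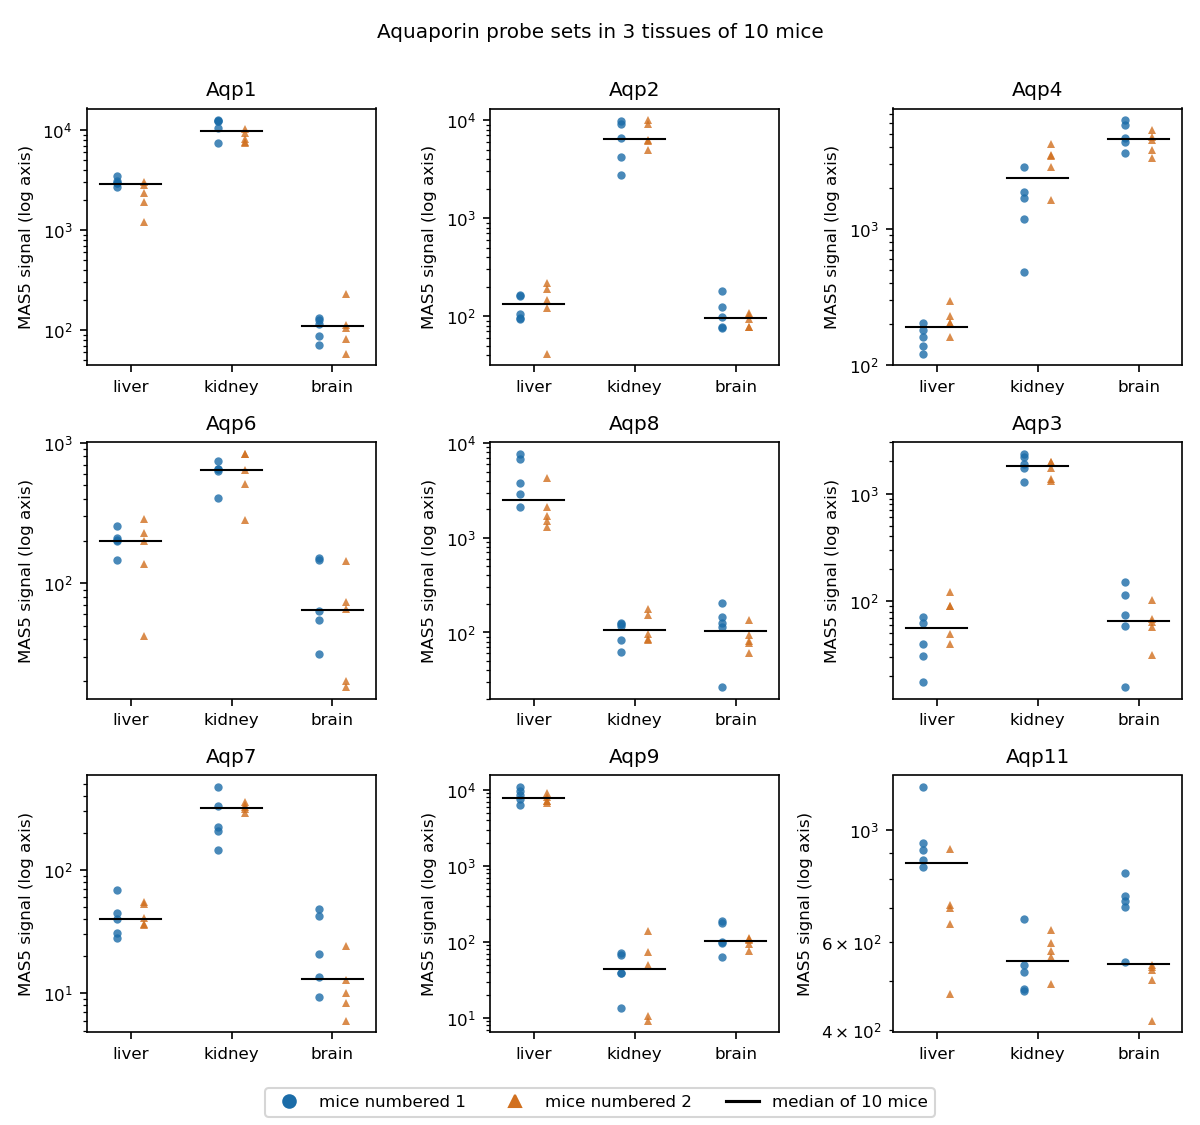
Signal of the probe set that stands for each aquaporin, on a log axis, in liver, kidney and brain of 10 mice; circles are mice numbered 1, triangles mice numbered 2, bars the median. Aqp1, Aqp2, Aqp3, Aqp6 and Aqp7 lie highest in kidney, Aqp8 and Aqp9 in liver and Aqp4 in brain, while the Aqp11 ranges overlap between tissues.

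The filter on low values asked for a mean log2 signal equal to 241.6 or more in at least 1 tissue. This kept 17 of the 21 aquaporin probe sets and all 9 genes. The kidney had 14 of them above that signal, the liver 6 and the brain 4. The 4 not tested were 1 probe set each of Aqp3, Aqp6, Aqp7 and Aqp11. Against kidney, liver was higher at 3 and lower at 12 of the 17 probe sets, where 9.85% and 18.6% of all tested probe sets were called in those directions. Against brain, liver was higher at 5 and lower at 4, with 20.4% and 30.2% of all. Kidney was higher than brain at 10 and lower at 2, with 20.7% and 21.9% of all. The median log2 difference over the 17 was -2.38 for liver minus kidney, 0.29 for liver minus brain and 2.93 for kidney minus brain, against -0.13, -0.15 and 0.03 over all 22519 tested. A probe set could pass the filter through the 1 tissue where it is high, and several probe sets share a gene, so these counts describe the family and are not independent.

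**Figure D2:**
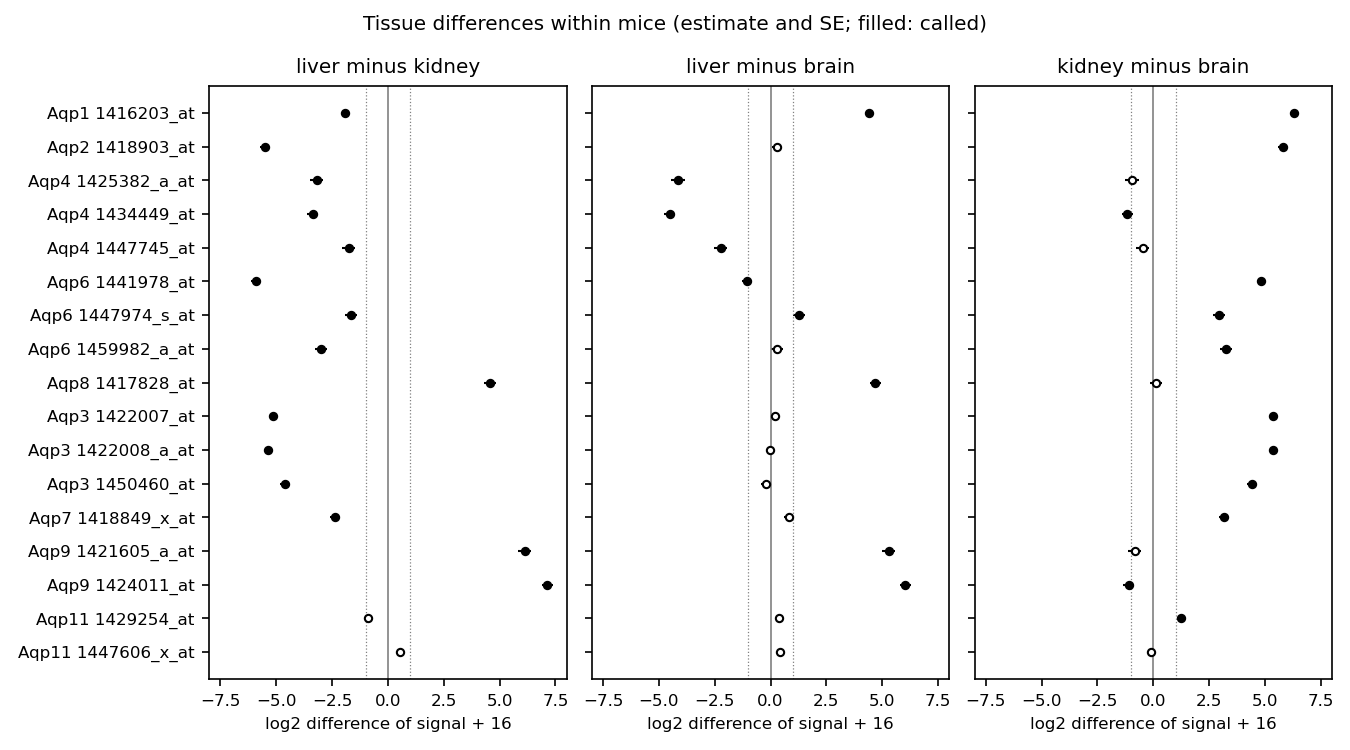
Log2 difference of signal + 16 between tissues within mice, with its SE, for the 17 tested aquaporin probe sets; filled points were called and dotted lines mark a log2 difference of 1. Aqp8 and Aqp9 lie on the liver side of both differences with liver, and the Aqp2, Aqp3 and Aqp7 points for liver minus brain are open.

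Aqp1, the constitutive water channel of the nephron, of red cells and of endothelium, was above brain in both kidney and liver. Its kidney signal had a lowest value of 7392.4, a median of 9794 and a highest of 12557.2. In liver these were 1193.4, 2892 and 3508.6, and in brain 58.1, 110 and 229.7. The 3 ranges did not overlap. Kidney was 3.74-fold above liver (log2 difference 1.90 lower in liver, SE 0.16, limma adjusted p = 5.22e-11) and 79.1-fold above brain (adjusted p = 8.89e-22), each in 10 of 10 mice. Liver was 21.2-fold above brain (adjusted p = 5.48e-19). In brain Aqp1 stayed under the filter signal. Summed choroid plexus and ependyma markers ran from 1502.7 in mottled 1, where Aqp1 was 88.2, to 34169.2 in yellow 1, where it was 115.3, and were 21588.1 in yellow 2, which had the highest brain Aqp1. The lowest brain Aqp1 values, 58.1 in pseudoagouti 2 and 70.7 in pseudoagouti 1, came with marker sums of 5008.7 and 3438.9. The part of these markers in the Aqp1 values was not tested.

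Aqp2, the vasopressin-regulated channel of the collecting duct, was a kidney gene in these data. The 10 kidneys ran from 2780.7 through a median of 6363 to 9963.5. Liver lay between 41.5 and 220.4 and brain between 75.7 and 182.8. Every kidney was above every liver and brain, while liver and brain overlapped. Kidney was 45.8-fold above liver and 55.9-fold above brain (adjusted p = 1.28e-17 and 2.06e-18 in limma), and liver minus brain was 0.29 ± 0.21 (SE, adjusted p = 0.213).

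Aqp4, the water channel of astrocyte endfeet, had 3 tested probe sets. At 1434449_at the brain ran from 3336.6 through 4615 to 6309.8, the kidney from 487.8 through 2361 to 4251.9, and the liver from 121.4 to 296.9. Brain and kidney overlapped, and each lay wholly above liver. Brain was 22.8-fold above liver (adjusted p = 4.75e-15) and 2.23-fold above kidney (adjusted p = 1.43e-04 in limma), the latter in 9 of 10 mice. The difference between kidney and brain depended on the probe set: it was -1.16 at 1434449_at, -0.95 at 1425382_a_at (adjusted p = 0.00649, under the required size) and -0.48 at 1447745_at (adjusted p = 0.131). Without slightly mottled 1, the mouse with the lowest kidney value, the first of these shrank to -0.88 and was no longer called. The 2 other probe sets were also lowest in liver, with 38.4 to 213.5 at 1425382_a_at and 68.2 to 197.4 at 1447745_at.

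Aqp6, the channel of acid-secreting intercalated cells, was higher in kidney at all 3 tested probe sets. At 1441978_at the kidney ran from 1099.3 through 1403 to 1653.4, against 1.3 to 17.1 in liver and 4.6 to 129.7 in brain, with no overlap between kidney and the rest. Kidney was 60.0-fold above liver and 28.7-fold above brain (adjusted p = 4.94e-18 and 1.41e-16 in limma). The probe set with the highest overall mean, 1447974_s_at, shares sequence with other transcripts by its suffix and separated the tissues less, with 284.1 to 837.7 in kidney, 42.4 to 285.9 in liver and 18.2 to 150.3 in brain. Its kidney was 3.16-fold above liver and 7.62-fold above brain. The untested 1420035_at was not higher in kidney, with overlapping ranges of 47.9 to 187.0 in kidney, 98.7 to 183.7 in liver and 74.2 to 226.2 in brain. For liver against brain the probe sets went opposite ways, with log2 differences of -1.06 at 1441978_at and 1.27 at 1447974_s_at, at signals under the filter in both tissues. Of the listed intercalated cell genes, 9 of 9 tested were higher in kidney than in liver and 9 of 9 higher than in brain, among them Rhcg, an ammonia transporter, at 1240 ± 361 (SD, n = 10) in kidney, and Foxi1, their transcription factor, at 703 ± 155.

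Aqp8, which passes water and ammonia, was a liver gene. Its liver signal ran from 1310.4 through 2513 to 7731.0, and kidney and brain lay at 62.8 to 175.6 and 26.4 to 202.3. All livers lay above all kidneys and brains, and the latter overlapped. Liver was 23.7-fold above kidney and 25.8-fold above brain (adjusted p = 1.47e-14 and 2.91e-15 in limma), and kidney minus brain was 0.12 ± 0.25 (SE, adjusted p = 0.667).

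Among the aquaglyceroporins, Aqp3 and Aqp7 were kidney genes and Aqp9 was a liver gene. Aqp3, the basolateral channel of principal cells, ran in kidney from 1269.3 through 1809 to 2353.3 at 1450460_at, with 17.8 to 121.9 in liver and 15.8 to 150.4 in brain. Liver and brain overlapped far below the kidneys. Kidney was 24.6-fold above liver and 21.6-fold above brain (adjusted p = 8.81e-16 and 9.99e-16 in limma). The other tested probe sets gave kidney ranges of 617.6 to 1255.5 and 367.3 to 1137.3, and were 35.9-fold and 40.9-fold above liver. The untested 1447727_at went the other way, with 31.2 to 118.0 in liver and 2.9 to 27.9 in kidney.

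Aqp7, which in fat cells releases glycerol and in the kidney reclaims it in the proximal tubule, passed the filter signal only in kidney and at 1 of its 2 probe sets. At 1418849_x_at, with shared sequence by its suffix, the kidney ran from 144.2 through 317 to 467.4, the liver from 28.3 to 68.2 and the brain from 6.0 to 47.8. The kidneys lay above all other samples. Kidney was 5.19-fold above liver and 9.08-fold above brain (adjusted p = 6.53e-10 and 1.12e-12 in limma). The kidneys also held varying fat, with summed white and brown fat markers of 7957.7 to 27386.1 and the fat hormone Adipoq at 1110 ± 1250 (SD, n = 10). Over the 10 kidneys Aqp7 and the mean log2 of these markers gave r = 0.01 and rho = 0.33 (permutation p = 0.98 and 0.35, adjusted p = 0.999 and 0.801, n = 10, r = 0.16 without the 2 farthest mice), with r = -0.26 within number 1 and 0.99 within number 2.

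Aqp9, the glycerol entry of hepatocytes, had 2 tested probe sets, both high in liver. At 1424011_at the liver ran from 6332.4 through 7831 to 10881.9, the kidney from 9.2 to 139.5 and the brain from 64.3 to 189.9. Livers lay far above the rest. Liver was 140.0-fold above kidney and 65.4-fold above brain (adjusted p = 7.63e-19 and 6.88e-18 in limma). Kidney minus brain was -1.10 (adjusted p = 1.95e-04 in limma), a call at signals under the filter in both tissues. At 1421605_a_at the liver ran from 1318.7 through 3307 to 5687.3 and was 69.7-fold and 39.1-fold above kidney and brain. Summed hepatocyte markers were 221549.1 to 329960.1 in liver and 4411.7 to 25959.7 in kidney.

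Aqp11 did not divide the tissues clearly, and its probe sets disagreed. At 1429254_at kidney was highest, with 350.3 to 820.7 against 158.0 to 424.5 in liver and 101.9 to 387.2 in brain. Kidney was 2.40-fold above brain (adjusted p = 1.08e-06 in limma), and the 1.83-fold difference from liver missed the required size. At 1447606_x_at, with shared sequence by its suffix, liver ran from 471.3 to 1219.8, kidney from 478.4 to 664.6 and brain from 416.9 to 820.7, and no difference reached a log2 of 1. Over the 10 kidneys these probe sets gave r = -0.55 with each other, a description of 1 gene measured at different places.

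The other aquaporin genes on the array were low in every tissue and were not tested. Mip, the lens fibre aquaporin, had its highest signal at 91.8, Aqp5, a channel of secretory glands, at 140.7 and Aqp12, known from pancreas, at 263.3.

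The genes around the vasopressin response were described from a list of 21 genes, all tested. Kidney exceeded liver at 12 and was below it at none, and it exceeded brain at 13 and was below it at 5. Avpr2, the vasopressin receptor of the collecting duct, had a kidney signal of 945 ± 205 (SD, n = 10), with log2 differences of -2.81 for liver minus kidney and 3.30 for kidney minus brain (adjusted p = 5.67e-13 and 9.88e-15 in limma). Adcy6, an adenylyl cyclase that makes cAMP after the receptor, was at 1750 ± 378 in kidney, with differences of -1.87 and 1.58. The potassium channel Kcnj1, the sodium channel subunit Scnn1g, the steroid enzyme Hsd11b2 and the transcription factor Tfcp2l1 stood out most by kidney, with signals of 5020, 846, 3410 and 3710. Higher in brain than in kidney were the protein kinase A subunit Prkacb, at 7900 against 1860, and the vesicle protein Vamp2, at 8530 against 1020.

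Genes of glycerol and triglyceride metabolism were read beside Aqp9 and Aqp7, from a list of 16 genes of which 14 were measured and tested. Liver exceeded kidney at 4 and was below it at none, and it exceeded brain at 10. The 4 were Agpat2 and Lpin1, Lpin2 and Dgat2 of triglyceride synthesis. Gpd1, the glycerol phosphate dehydrogenase, was at 4160 in liver and 3120 in kidney, a log2 difference of 0.45 under the required size. Pck1, the committing enzyme of gluconeogenesis, was at 17200 in liver, 9960 in kidney and 9.37 in brain. Lipe, the hormone-sensitive lipase, had log2 differences of -0.36 for liver minus kidney (adjusted p = 0.0799) and 1.09 for kidney minus brain. Gk, the glycerol kinase that acts on the glycerol Aqp9 brings in, was not matched by symbol.

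In brain, Aqp4 was read beside 13 astrocyte genes, all tested, of which 11 were higher in brain than in liver and 10 higher than in kidney. Against that, Aldh1l1, a folate enzyme, was higher in liver and in kidney than in brain, with log2 differences of 3.51 and 1.82, and the bicarbonate transporter Slc4a4 was higher in kidney than in brain, by 1.69. The glutamate transporters Slc1a3 and Slc1a2, the calcium-binding S100b and the connexin Gjb6 stood out most. Kcnj10, the potassium channel that shares the endfoot with Aqp4, was at 1920 in brain, 661 in kidney and 99.3 in liver. Of 6 measured genes of the dystrophin complex that anchors Aqp4, liver exceeded kidney at 2 and was below it at 2, and kidney exceeded brain at 1 and was below it at 1. The one higher in brain was Dtna, dystrobrevin, with a log2 difference of -3.25 for kidney minus brain.

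The second question was how far aquaporins vary between mice that share genotype, age and sex. The spread is given as the SD of log2 signal over the 10 mice, beside the median of all probe sets above the filter signal in that tissue, 0.28 in each tissue. Aqp4 in kidney and Aqp8 in liver varied most. Aqp4 had SDs of 0.92, 0.90 and 0.85 at its 3 probe sets in kidney, the highest of which lay above 99.3% of probe sets there, and 0.29 in brain at the probe set of 0.92. Aqp8 had 0.89 in liver, above 98.8% of probe sets. Aqp2 had 0.60 in kidney, above 96.0%, and Aqp4 at 1425382_a_at had 0.62 in brain. Aqp1 had 0.31 in kidney and 0.45 in liver. Aqp3 had 0.31, 0.34 and 0.52 in kidney at its 3 tested probe sets, and Aqp6 had 0.20 at 1441978_at, 0.47 at 1447974_s_at and 0.51 at 1459982_a_at. For Aqp9 the value depended on the probe set, with 0.25 at 1424011_at and 0.74 at 1421605_a_at.

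**Figure D3:**
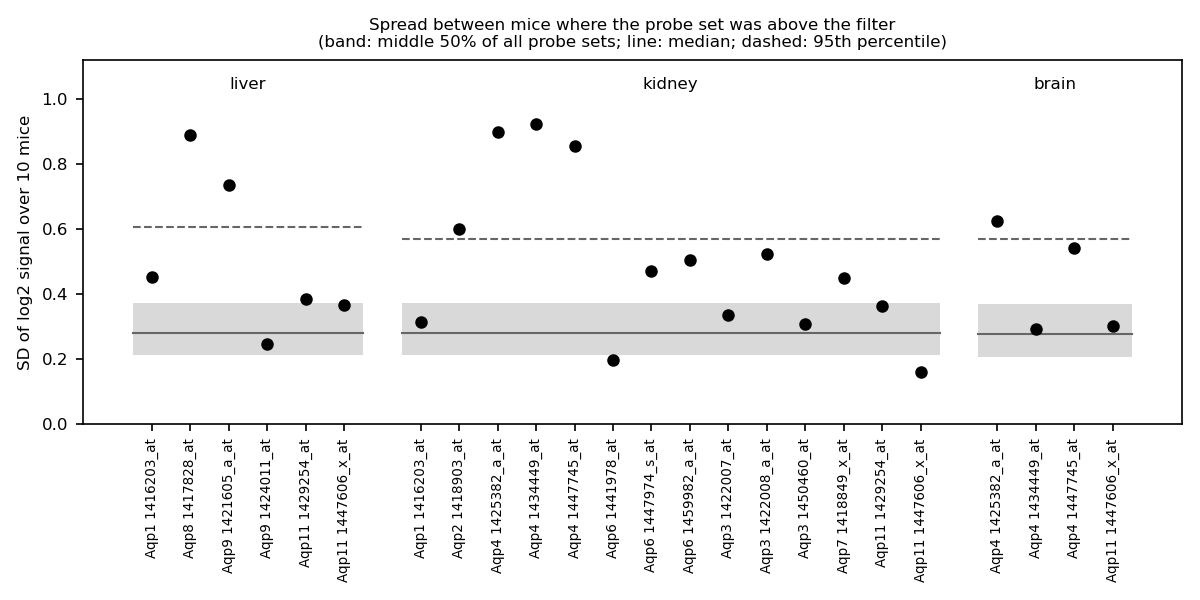
SD of log2 signal over 10 mice for each aquaporin probe set above the filter signal, by tissue; the band is the interquartile range of all such probe sets, the solid line is their median and the dashed line their 95th percentile. Aqp8 and 1 Aqp9 probe set in liver, Aqp2 and the 3 Aqp4 probe sets in kidney and 1 Aqp4 probe set in brain lie above the dashed line.

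In the kidney, Aqp4 at 1434449_at was 487.8 in slightly mottled 1, 1178.6 and 1631.2 in the heavily mottled mice, 1677.6 in mottled 1 and 1868.3 in yellow 1. It was 2853.4 in pseudoagouti 1, 2866.6 in slightly mottled 2, 3433.1 in yellow 2, 3503.1 in mottled 2 and 4251.9 in pseudoagouti 2. The highest kidney was thus 8.72 times the lowest, and slightly mottled 1 stood lowest at all 3 Aqp4 probe sets, at Aqp2 and at 1450460_at of Aqp3. Aqp2 was 2780.7 and 6231.8 in the slightly mottled mice numbered 1 and 2, 4169.6 and 6155.2 in the mottled mice, and 6494.5 and 4997.6 in the heavily mottled mice. It reached 9013.0 and 9030.0 in the pseudoagouti mice and 9867.6 and 9963.5 in the yellow mice. The mice of the classes at both ends of the coat scale held the highest Aqp2 values, and within each of these classes they were nearly equal. This pattern was noticed in the values. A slope along the coat scale, as used below, cannot show a pattern that is high at both ends. A fit of the classes without order could, and it was run as an alternative, but its value for Aqp2 is not given here.

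**Figure D4:**
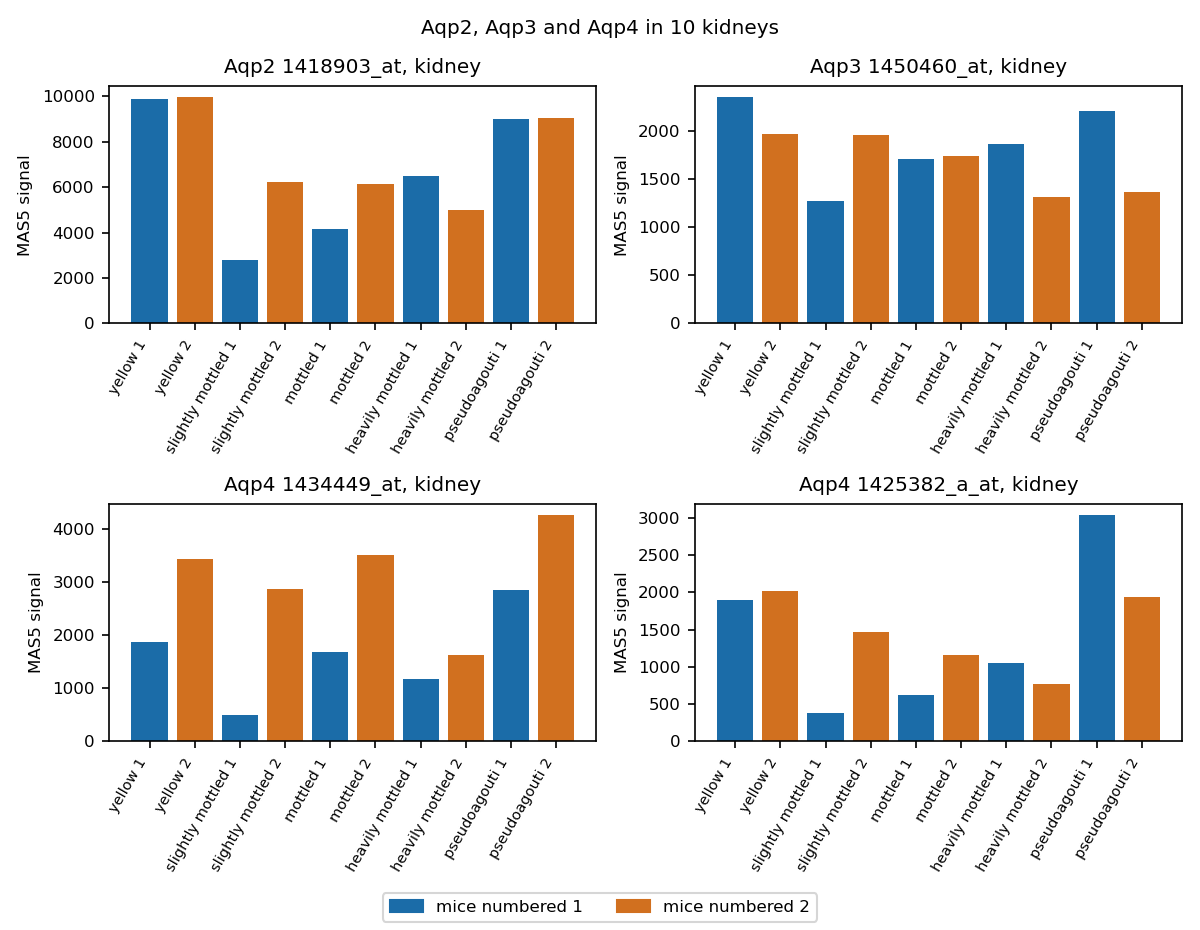
Kidney signal of Aqp2, Aqp3 and of 2 Aqp4 probe sets in each of the 10 mice, as bars from 0 in the order of the coat scale, coloured by mouse number. Slightly mottled 1 is lowest in the 4 panels, and Aqp2 is highest in the yellow and pseudoagouti mice.

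Pairs of aquaporins were correlated over the 10 mice of a tissue, 28 pairs in all, and none passed adjustment. Aqp2 and Aqp4 in kidney gave r = 0.76 and rho = 0.55 (permutation p = 0.011 and 0.106, adjusted p = 0.245 and 0.714, n = 10). Without the 2 mice farthest from the Aqp2 median r was 0.41, and without slightly mottled 1 alone it was 0.49. Within mice numbered 1 it was 0.82 and within those numbered 2 it was 0.77. With the other Aqp4 probe sets, Aqp2 gave r = 0.954 at 1425382_a_at and 0.936 at 1447745_at, given as a description outside the 28 pairs. Aqp2 and Aqp3 gave r = 0.64 and rho = 0.73 (permutation p = 0.045 and 0.022, adjusted p = 0.391 and 0.495), r = 0.44 without the 2 farthest mice, 0.98 within number 1 and 0.28 within number 2. Aqp1 and Aqp7 ran in opposite directions, with r = -0.71 and rho = -0.69 (permutation p = 0.017 and 0.035, adjusted p = 0.245 and 0.495), r = -0.63 without the 2 farthest mice, -0.72 within number 1 and -0.57 within number 2. Aqp8 and Aqp9 in liver gave r = 0.27 and rho = 0.32 (permutation p = 0.442 and 0.369, adjusted p = 0.774 and 0.738), r = 0.59 without the 2 farthest mice, -0.33 within number 1 and 0.98 within number 2.

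Each aquaporin probe set above the filter signal was also set beside the mean log2 of marker lists of its tissue, 162 relations chosen after the data were seen, of which 3 passed adjustment for Pearson's r and none for rho. Aqp8 in liver was lower where the genes of glycerol and triglyceride metabolism were higher, with r = -0.92 and rho = -0.84 (permutation p = 3.5e-04 and 0.004, adjusted p = 0.028 and 0.156, n = 10). That r was -0.81 without the 2 farthest mice, -0.91 within number 1 and -0.95 within number 2. Aqp4 at 1425382_a_at in brain ran with the astrocyte genes, with r = 0.89 and rho = 0.81 (permutation p = 2.4e-04 and 0.007, adjusted p = 0.028 and 0.188), 0.80 without the 2 farthest mice, 0.94 within number 1 and 0.72 within number 2. The probe set that stands for Aqp4, 1434449_at, gave r = 0.22 and rho = 0.14 with the same genes (permutation p = 0.528 and 0.707, adjusted p = 0.84 and 0.946), -0.24 without the 2 farthest mice, 0.10 within number 1 and 0.15 within number 2. Aqp11 at 1429254_at in kidney ran with the genes of the loop of Henle and distal tubule, with r = 0.88 and rho = 0.89 (permutation p = 5.4e-04 and 0.001, adjusted p = 0.029 and 0.156), 0.80 without the 2 farthest mice, 0.65 with the number mean removed, 0.58 within number 1 and 0.85 within number 2. The probe set that stands for Aqp11, 1447606_x_at, gave r = -0.33 and rho = -0.46 with these genes (permutation p = 0.348 and 0.191, adjusted p = 0.788 and 0.7), -0.42 without the 2 farthest mice, 0.16 within number 1 and -0.81 within number 2. Aqp2 and the vasopressin and principal cell genes gave r = 0.79 and rho = 0.73 (permutation p = 0.007 and 0.02, adjusted p = 0.121 and 0.275), 0.62 without the 2 farthest mice, 0.93 within number 1 and 0.59 within number 2. With the same genes Aqp3 gave r = 0.21 at 1450460_at, -0.04 at 1422007_at and 0.42 at 1422008_a_at. Kidney Aqp4 gave 0.78 at 1434449_at, 0.81 at 1425382_a_at and 0.79 at 1447745_at, and none of these passed adjustment.

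The series looks for genes whose level differs between mice in all tissues alike. Of the aquaporin probe sets, only 1447606_x_at of Aqp11 was above the filter signal in all 3 tissues, so for the others the test includes tissues at low signal and says little of such a pattern. By limma's moderated F-test on the mice 0 of 17 probe sets were called, against 6.8% of all, with the lowest adjusted p at 0.271 for Aqp8. At an unadjusted p under 0.05 there were 0 of 17, against 5689 of 22519 over all tested. With the number removed within each tissue 0 of 17 were called, against 0.417% of all. For Aqp4, kidney and brain ranked the mice differently: pseudoagouti 2 had the highest kidney signal of 1434449_at, at 4251.9, and the third lowest brain signal, at 3838.5, while slightly mottled 1 had the lowest in kidney, at 487.8, and the highest in brain, at 6309.8.

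Coat class was tested as a slope per step from yellow to pseudoagouti. No aquaporin was called in limma: 0 of 17 in liver (0% of all tested), 0 of 17 in kidney (0.00444%), 0 of 17 in brain (0%) and 0 of 17 on the mean of the tissues (0.00444%), with adjusted p of 1 throughout. Of the 17, however, 11 lay under the filter signal in liver, 3 in kidney and 13 in brain, which leaves 6, 14 and 4 slopes of measured levels. At an unadjusted p under 0.05 there was 1 in liver, 0 in kidney, 1 in brain and 0 on the mean. Over all 22519 tested these counts were 536, 465, 326 and 428. The one in liver was 1459982_a_at of Aqp6, with a slope of 0.33 ± 0.12 per step (SE, adjusted p = 1), and the one in brain was Aqp1, with a slope of -0.23 ± 0.09 per step (SE, adjusted p = 1), both at signals under the filter. For Aqp2 in kidney the slope was 0.02 ± 0.12 and for Aqp8 in liver 0.03 ± 0.17 (SE, adjusted p = 1 for both in limma). With 2 mice in a class the design gives wide errors, so small slopes were not detectable.

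In liver, 1 of the Aqp9 probe sets differed between the mice numbered 1 and 2, and Aqp8 missed the threshold. Aqp8 was 2908.0, 3822.4, 7731.0, 6795.0 and 2117.1 in the number 1 mice from yellow to pseudoagouti, and 1310.4, 1713.7, 4286.1, 2089.9 and 1514.3 in the number 2 mice. In each of the 5 classes the mouse numbered 2 was lower, while the ranges of the numbers overlapped. The difference was -1.06 ± 0.38 (log2, SE, adjusted p = 0.0934 in limma) and it passed with the coat class as a block (adjusted p = 0.0107). Aqp9 at 1421605_a_at was 3541.8, 4065.5, 3509.6, 5687.3 and 3797.9 in number 1, and 3104.8, 1355.3, 2758.6, 1451.6 and 1318.7 in number 2. These ranges did not overlap, and the difference of -1.12 ± 0.25 was called (adjusted p = 0.0153 in limma), 1 of 17 aquaporin probe sets against 9.85% of all tested. At 1424011_at, the other Aqp9 probe set, it was -0.15 ± 0.14 (adjusted p = 0.564) with overlapping ranges.

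**Figure D5:**
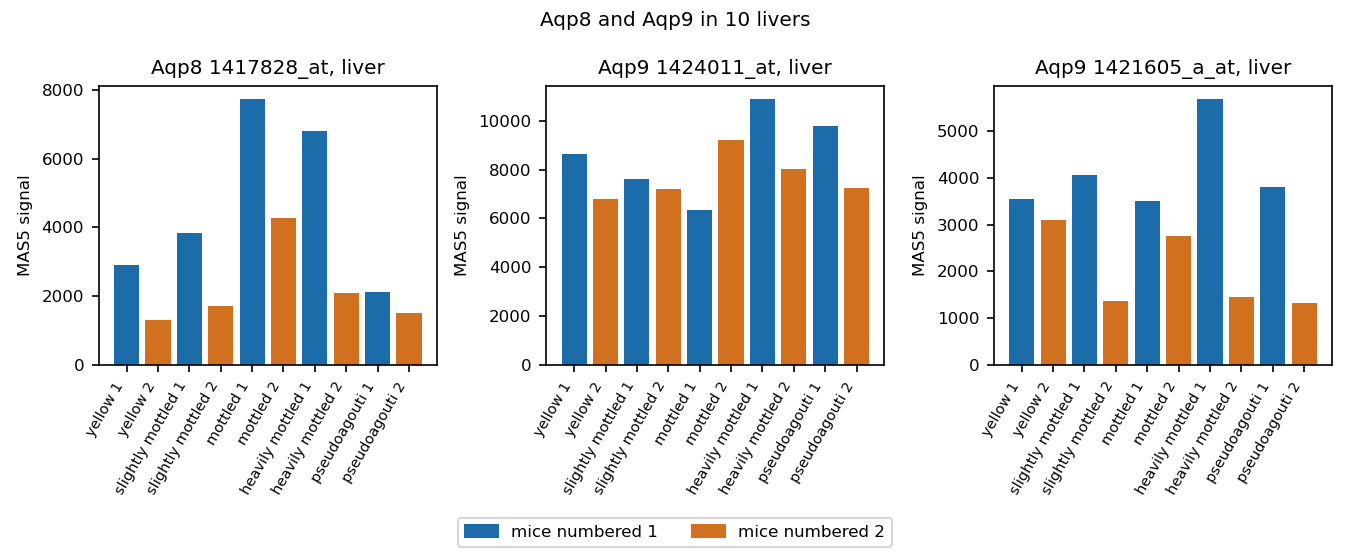
Liver signal of Aqp8 and of both tested Aqp9 probe sets in each of the 10 mice, as bars from 0 in the order of the coat scale, coloured by mouse number. Aqp8 and Aqp9 1421605_a_at are lower in the number 2 mouse of every class, and Aqp9 1424011_at is not.

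The Gapdh ratio moved with the low Aqp9 values. It was -0.292, -0.171 and -0.18 in the livers of slightly mottled 2, heavily mottled 2 and pseudoagouti 2, where 1421605_a_at lay between 1318.7 and 1451.6. It was -0.418 to -0.368 in the other livers numbered 2, at 2758.6 and 3104.8, and -0.5 to -0.407 in the livers numbered 1. Its part in the Aqp9 difference was not tested.

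In kidney, Aqp11 at 1429254_at was called for the number, with 724 ± 79.2 in number 1 and 491 ± 90.2 in number 2 (SD, n = 5 each), a difference of -0.56 ± 0.15 (SE, adjusted p = 0.043 in limma). It was 1 of 17, against 7.33% of all, and the ranges, 636.4 to 820.7 and 350.3 to 587.1, did not overlap. The call was lost when any one of 8 of the 10 mice was left out, with adjusted p of 0.06 to 0.103, and with the coat class as a block (adjusted p = 0.0503). In number 2, 5 of 10 genes of the loop of Henle and distal tubule and 2 of 12 of the proximal tubule were called lower. Over all tested probe sets 780 of 22519 were called lower. Aqp1 in kidney was 10395.1 to 12557.2 in the 4 mice whose array had the highest signals and 7392.4 to 10219.8 in the other 6, and the part of the array in this was not tested. By number its difference was -0.35 ± 0.16 (adjusted p = 0.166). Aqp4 at 1434449_at was 1610 ± 875 in number 1 and 3140 ± 975 in number 2 (SD, n = 5 each), a log2 difference of 1.096 ± 0.38 (SE, adjusted p = 0.0854), which passed with the coat class as a block (adjusted p = 0.0341). The Gapdh ratio was -0.397 to -0.297 in kidneys numbered 1 and -0.342 to 0.021 in kidneys numbered 2, with the highest value in pseudoagouti 2, which also had the highest Aqp4 at this probe set and the lowest Aqp11 at 1429254_at. Its part in these differences was not tested.

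In brain only 4 of the 17 probe sets were above the filter signal, 3 of Aqp4 and 1 of Aqp11. For the number, 0 of 17 were called there in limma, against 1.97% of all. At an unadjusted p under 0.05 there were 3 of 17, 2 of them among the 4, against 4953 of 22519 over all tested. The lowest adjusted p was 0.0823 at 1447606_x_at of Aqp11, with signals of 545.8 to 820.7 in number 1 and 416.9 to 538.3 in number 2. The difference by number was itself tested between tissues for each probe set. Only Aqp9 1421605_a_at passed (adjusted p = 0.0441 in limma's moderated F-test), 1 of 17 against 4.94% of all, with differences of -1.12 in liver, 0.72 in kidney and -0.11 in brain. Kidney and brain signals were under the filter.

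The tested genes most like each aquaporin over the 30 arrays were found by Pearson's r on log2 signals, which share tissue, mouse and scaling. For Aqp2 these were Aqp3 at 0.988 (1422007_at), the lactate transporter Slc5a12 and the urea transporter Slc14a2. For Aqp1 they were Pdzk1, Idh2 and Cd151 at 0.990 to 0.992. For Aqp8 they were the clotting factor F10, Adh4 and Mbl2, and for Aqp9 Tfr2, Serpind1 and Slc7a2. For Aqp3 they were Apela, Snhg18 and the salt cotransporter Slc12a3, for Aqp4 Gprc5b, Endod1 and Phyhipl, for Aqp6 Uaca, Renbp and Sox18, and for Aqp7 Dab2, Ccnd1 and Bicc1. Aqp11 had the weakest likeness, with Mms19 at 0.845. Over the 10 kidneys the most like Aqp2 were Aqp4 at 1425382_a_at with 0.954, Rtn1 with 0.943 and Cryab with 0.940, and over the 10 livers the most like Aqp8 was Atp2c1 with 0.960. These leaders were picked from all tested probe sets as the highest values and carry no test.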

How the data were processed

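RNA of liver, kidney and brain from 10 mice was hybridised to Affymetrix mouse genome arrays, 30 in all. The deposited values are linear signal intensity per probe set, made with MAS5 per the submitters' processing notes, and each array's trimmed mean is 500.0. Its version and detection calls are not given in the sources used here. Array number and probe response limit the precision, since arrays give no read depth.

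Of 45101 probe sets, 64 were controls; 34945 had 1 symbol, 932 several and 9160 none. Values were taken as log2(signal + 16), the filter kept 22519 probe sets, and limma 3.58.1 in R 4.3.3 (eBayes with trend) was fitted on all of them, with Benjamini-Hochberg adjustment at 0.05. Tissue contrasts had the mouse as a block. The mouse effect was a moderated F-test, the coat slope and the difference by number were fitted per tissue, and correlations used 100000 permutations (Python 3.11.15, numpy 2.4.6, pandas 2.3.3, scipy 1.17.1). Samples of the same class and number in different tissues were taken as 1 mouse, which the labels do not state outright. The labels do not say whether mice shared a litter. P-values of the coat slopes and of the difference by number rest on the spread between these mice. Those of the tissue contrasts and the mouse effect rest on the spread left after tissue and mouse means are removed. The number names a mouse and was not shown to mark a batch. The fits were tested on simulated data.

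The aquaporins and gene lists (189 entries, 173 matched) were chosen with earlier results of these data known. Named were all aquaporin probe sets, the 3 other aquaporin genes, Avpr2, Adcy6, Gk, Gpd1, Pck1, Lipe and Kcnj10 (Gk unmatched), up to 4 genes of a list with the largest difference between its highest tissue and the nearer other, and the 3 most alike genes. Prkacb, Vamp2, Dtna, Aldh1l1, Slc4a4, Rhcg, Foxi1 and Adipoq were named after their values were seen. The probe set with the highest mean log2 stands for a gene. Alternatives were other offsets, filters, normalisations, blocks, covariates and probe sets, coat classes without order, and each mouse left out. The relations with lists and the interaction tests were added after the data were seen. Upstream sequences are RefSeq's.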

Additional observations from a re-analysis of the deposited data

Results flagged for a closer look

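The liver signal of Aqp11 at 1429254_at was lowest in heavily mottled 2, at 158.0, while the other 9 livers lay between 283.4 and 424.5. On the log2 scale the gap to the nearest liver was 0.584 of the whole range, above Dixon's critical value for 10 samples. Of 24 aquaporin groups looked at this way it was the only one past that value, and chance gives about 1 in 20. The liver of heavily mottled 2 also had the lowest Aqp1, at 1193.4. Its Gapdh ratio, -0.171, was the highest among the livers, and the part of RNA quality in these values was not tested.

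Aqp9 at 1421605_a_at differed between mice numbered 1 and 2 by an amount that itself differed between tissues (limma's moderated F-test, adjusted p = 0.0441). Number 2 minus 1 was -1.12 in liver, 0.72 for kidney and -0.11 for brain, where its signals were under the filter.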

How the results depend on the processing

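No result reversed under the alternatives run, and of the single tissue differences 914 values kept their side of the threshold, 8 passed it and 11 lost it. With the filter on the overall mean, 7 aquaporin probe sets were lower in liver than in kidney and 5 higher in kidney than in brain, in place of 12 and 10, because fewer were tested. Without the probe sets with suffixes _s_at, _x_at or _a_at these were 7 and 6. Those higher in liver than in brain were then 3 in place of 5, and those called by number in liver 0 in place of 1. These counts fell because the called probe sets with such suffixes were left out. With an offset of 64, 1 in place of 2 was lower in kidney than in brain. The difference by number gave 2 calls in liver with the coat class as a block and 0 in kidney without the filter; the cause was not tested.

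Leaving out 1 mouse at a time gave 1 to 3 probe sets lower in kidney than in brain (1 without slightly mottled 1 or without heavily mottled 1), 3 to 4 lower in liver than in brain, 1 to 2 called by number in liver (2 without pseudoagouti 1, mottled 2 or heavily mottled 2), 0 to 3 in kidney (3 without mottled 1) and 0 to 1 in brain (1 without mottled 1). The other tissue counts stayed at 12, 10, 5 and 3, and the mouse effect, coat slopes and pairs at 0.

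With the replicate number as a block, the tissue counts were 3 and 12 for liver against kidney, 5 and 4 for liver against brain and 10 and 2 for kidney against brain, and 0 for the mouse effect, coat slopes and pairs, so it changed no count. The Aqp9 difference between kidney and brain at 1424011_at was -0.66 with an offset of 64 and -0.84 after quantile normalisation, under the required size. Probe sets near background limit what can be read from liver and brain for Aqp2, Aqp3, Aqp6 and Aqp7.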
